A study of Mus musculus with 17 samples.

Results

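Lif, Osm, Csf1, Csf2 and Il3 are 5 mouse genes for secreted cytokines that activated T cells can make. Lif and Osm belong to the IL-6 family, and Csf1, Csf2 and Il3 are colony-stimulating factors. They were chosen by name and matched through their symbols to Ensembl identifiers, as 5 of the 53679 genes in the count tables. After stimulation for 12 h, Lif, Osm, Csf2 and Il3 were higher in Cblb knockout (KO) cells than in wild-type (WT) cells, and Csf1 did not pass the test in any comparison of the genotypes. With anti-CD3 alone, Lif was 19.6-fold, Il3 16.1-fold, Csf2 3.67-fold and Osm 2.18-fold higher in KO cells. Osm stood apart from the others in one respect, since its level was already high at rest and did not rise with stimulation in either genotype.

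The measurements are gene-level read counts from RNA sequencing of 17 libraries of CD8+ T cells of the C57BL/6 mouse strain. The groups were KO cells left unstimulated (n = 3), KO cells given anti-CD3 (n = 3), KO cells given anti-CD3 plus anti-CD28 (n = 3), and WT cells left unstimulated (n = 3), given anti-CD3 (n = 3) or given both antibodies (n = 2, replicates 2 and 3, with replicate 1 not analysed here). Anti-CD3 triggers the T cell receptor complex, and anti-CD28 adds the costimulatory signal. The sources used here do not give how the Cblb allele was made or which other cells of the mice carry it. Nor do the labels state whether replicates are different animals, so the p-values reflect the variation among these libraries alone, and that may be technical.

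Cblb encodes Cbl-b, a ubiquitin ligase that restrains signalling from the T cell receptor and makes T cells depend on CD28. LIF and oncostatin M signal through gp130 (Il6st) paired with LIFR or OSMR, and activate JAK kinases and STAT3. GM-CSF (Csf2) and IL-3 act on myeloid and progenitor cells through receptors that share a beta chain (Csf2rb) and activate STAT5, and M-CSF (Csf1) supports macrophages through the tyrosine kinase receptor Csf1r. In T cells, Csf2, Il3 and Lif are switched on by NFAT, AP-1 and NF-κB after receptor engagement, and AU-rich elements in the 3′ UTRs of such cytokine transcripts are bound by proteins that speed their decay.

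Cblb itself checked the genotype labels. Its level was 63.9 to 95.9 CPM over the KO libraries and 139.5 to 190.1 CPM over the WT libraries, where CPM is the read count scaled to a common library total. Reads of Cblb thus remained in KO libraries, and whether they come from outside the deleted part was not tested. Library totals ran from 16635826 to 38269033 counts, apart from KO unstimulated replicate 2 with 160059285. That library and KO both-antibody replicate 3 also stood apart by how their levels tilted with gene GC content. The difference in median log2 deviation between GC-rich and GC-poor genes was 1.15 for the unstimulated library and -1.15 for the both-antibody one, and between -0.75 and 0.57 in the other 15 libraries. The 7 CD8 T cell markers summed to 1994 to 4064 CPM per library. Markers of monocytes, macrophages and dendritic cells, which make several of these cytokines, summed to 10.3 to 13.5 CPM in unstimulated KO libraries, to 6.79 to 8.93 CPM in unstimulated WT libraries and to 4.34 to 6.95 CPM in the stimulated ones. Of these 9 markers, 1 (Cd14) was at 0 in all stimulated libraries and 8 had reads there, with Itgax and Cd68 the highest. Mast cell and basophil markers summed to 0.398 to 2.59 CPM over all libraries. Whether other cells contributed to the cytokine reads was not tested. In bulk RNA, fewer cells making a transcript and less transcript per cell cannot be told apart.

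Of the 5 genes, 4 lie on chromosome 11 in 2 close pairs (coordinates on GRCm38). Osm (ENSMUSG00000058755, chr11:4236420-4241026, plus strand) ends 16.53 kb before Lif (ENSMUSG00000034394, chr11:4257557-4272514, plus strand). Csf2 (ENSMUSG00000018916, chr11:54247271-54249667, minus strand) and Il3 (ENSMUSG00000018914, chr11:54265303-54267277, minus strand) are 15.635 kb apart. Csf1 (ENSMUSG00000014599, chr3:107741048-107760469, minus strand) is on chromosome 3. Of the 5, Csf2 alone overlaps another annotated gene, the antisense Gm12223, which had 1 count over all 17 libraries.

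The sequences upstream of Lif and Il3 are shown because these genes had the largest fold differences between the genotypes and rose together. They come from RefSeq (GRCm38.p6), 5′ to 3′ on the gene's strand, and for Lif 239 bases are given, which stop 11 bases before the RefSeq start, where the GENCODE gene begins. They lie at chr11:4257318-4257556 (plus strand) for Lif and chr11:54267280-54267529 (minus strand) for Il3. Capitals mark matches to the AP-1 letters TGANTCA and to the NFAT core GGAAA, which reads TTTCC on the other strand.
Lif: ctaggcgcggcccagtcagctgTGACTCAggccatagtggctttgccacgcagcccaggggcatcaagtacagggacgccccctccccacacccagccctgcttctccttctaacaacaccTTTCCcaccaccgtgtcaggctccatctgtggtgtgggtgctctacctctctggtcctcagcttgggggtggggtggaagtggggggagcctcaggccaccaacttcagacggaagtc
Il3: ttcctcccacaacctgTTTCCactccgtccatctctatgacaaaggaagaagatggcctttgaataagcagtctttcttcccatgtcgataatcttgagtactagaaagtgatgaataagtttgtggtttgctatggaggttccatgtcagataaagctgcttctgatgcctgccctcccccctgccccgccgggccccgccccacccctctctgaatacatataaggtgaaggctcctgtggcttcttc

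The AP-1 match of Lif lay at -228 to -222 and its NFAT core at -129 to -125, counted from the RefSeq start, and the NFAT core of Il3 at -234 to -230. Windows of 250 bases upstream of the start were searched on both strands for 4 of the 5 genes (Lif, Csf1, Csf2 and Il3). AP-1 letters were found in 6.75%, the NFAT core in 55.6% and the STAT letters TTCNNNGAA (which can overlap GGAAA) in 7.02% of 32851 such windows in the table. The 4 windows held 7 NFAT cores in all, 3 in Csf1, 2 in Csf2 and 1 each in Lif and Il3, and no STAT letters. The RefSeq start of Csf2 lies 232 bases upstream of its GENCODE start. The bases just before the GENCODE gene were thus not searched for Csf2. A match is only a description of the letters.

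The 3′ UTRs differed in their ATTTA pentamers, the core of AU-rich elements. Csf2 had 9 in a 3′ UTR of 317 bases, a count that 8.42% of 20951 protein-coding genes reached, and the median gene had 1. Lif had 7 in 3180 bases, Osm 6 in 1017, Csf1 4 in 2111 and Il3 1 in the 101 bases of its annotated transcript. The densest 30 bases are shown for Csf2 (chr11:54247329-54247358, minus strand), Lif (chr11:4272414-4272443, plus strand) and Osm (chr11:4240939-4240968, plus strand), with pentamers in capitals.
Csf2: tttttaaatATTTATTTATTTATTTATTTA
Lif: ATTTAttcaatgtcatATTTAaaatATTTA
Osm: aatccgttttatATTTAtaaggcctATTTA
The window of Csf2 held 5 overlapping pentamers, that of Lif 3 and that of Osm 2.

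All 5 genes passed the filter on low counts, but 3 did so through the stimulated groups where they are high, so their passing carries no information. The filter's level was 0.521 CPM. No unstimulated library of either genotype reached it for Lif or Il3, and 1 of 6 did for Csf2. For Il3 in WT cells, 1 of 3 libraries given anti-CD3 and 1 of 2 given both antibodies reached it.

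Lif, the IL-6 family cytokine that acts through LIFR and gp130, was near 0 at rest and many times higher in stimulated KO cells. Its levels were 0.0562, 0.231 and 0.453 CPM in unstimulated KO libraries, 16.3, 18.3 and 34.7 CPM in KO libraries given anti-CD3, and 10.2, 13.5 and 23.7 CPM in KO libraries given both antibodies. In WT cells they were 0.0972, 0.114 and 0 CPM unstimulated, 0.797, 1.52 and 1.08 CPM with anti-CD3, and 1.40 and 1.66 CPM with both antibodies. Every stimulated KO library lay above every WT library, whereas the unstimulated groups overlapped, with 1, 35 and 7 reads in the KO libraries and 3, 3 and 0 in the WT libraries.

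With anti-CD3, Lif averaged 23.1 ± 10.1 CPM in KO cells and 1.14 ± 0.367 CPM in WT cells (SD, n = 3 each). The log2 fold change was 4.29 ± 0.40 (SE; adjusted p = 1.86e-05, edgeR's quasi-likelihood test with Benjamini-Hochberg adjustment over all 16246 tested genes, as for every adjusted p here). With both antibodies it averaged 15.8 ± 7.08 CPM in KO cells (n = 3) and 1.53 ± 0.186 CPM in WT cells (n = 2), or 3.36 ± 0.47 on the log2 scale (adjusted p = 0.00195). Leaving out 1 of the 2 WT both-antibody libraries ended that second call, with adjusted p = 0.0517 without replicate 2 and 0.0632 without replicate 3. At rest the difference did not pass (1.51 ± 0.90, adjusted p = 0.222, 95% interval -0.25 to 3.27).

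Stimulation raised Lif in both genotypes. Against unstimulated cells of the same genotype, anti-CD3 raised it by 6.61 log2 units in KO cells (adjusted p = 4.95e-08) and 3.82 in WT cells (adjusted p = 0.000989), and both antibodies raised it by 6.05 in KO cells (adjusted p = 1.48e-07) and 4.20 in WT cells (adjusted p = 0.000778). The test of the difference between these responses, KO minus WT, gave 2.78 ± 1.28 for anti-CD3 (adjusted p = 0.327) and 1.85 ± 1.24 for both antibodies (adjusted p = 0.26). Neither passed. The resting levels in these tests rest on 43 reads over 3 KO libraries and 6 over 3 WT libraries.

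**Figure D1:**
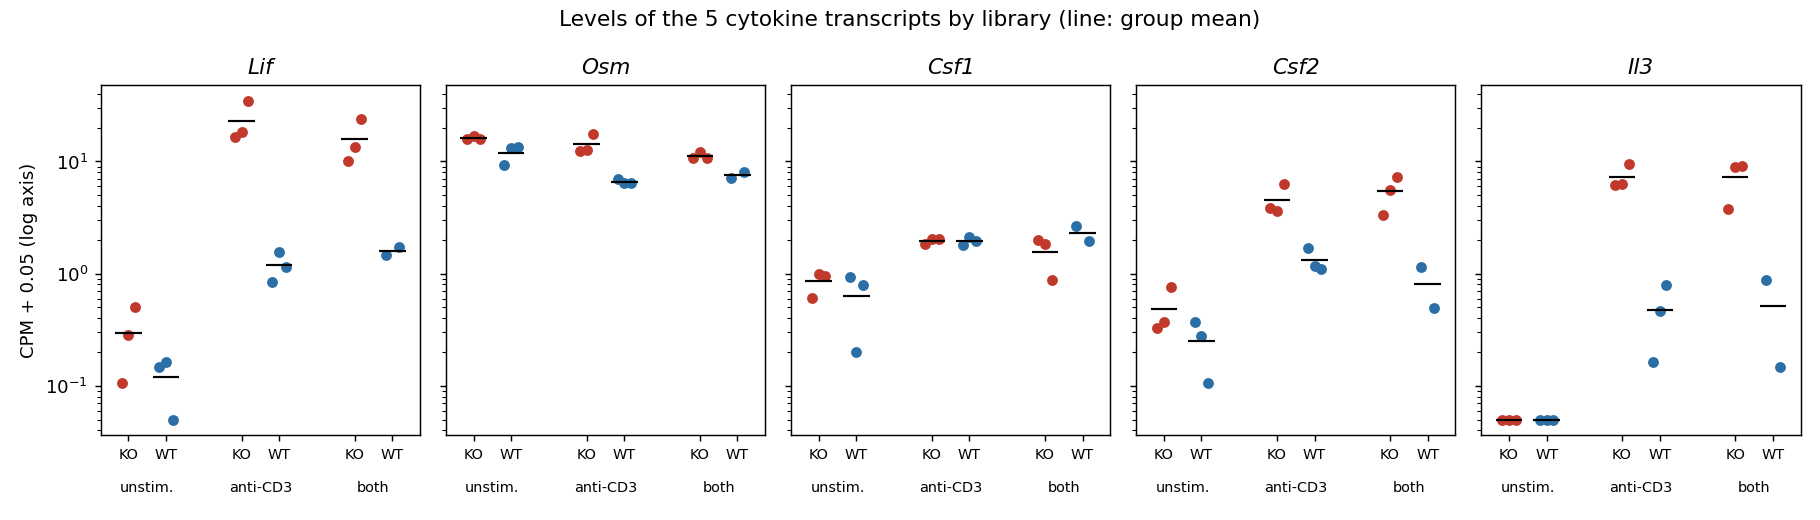
Level of each gene in every library (points; CPM plus 0.05 on a log axis) by genotype and stimulation, with the group mean as a line; both stands for anti-CD3 plus anti-CD28, and a library at 0 lies at 0.05. For Lif, Csf2 and Il3 every stimulated KO library lies above every WT library, Osm stays between 6.33 and 17.5 CPM, and Csf1 rises to 1.92 CPM on average with anti-CD3 in KO and WT cells alike.

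Osm encodes oncostatin M, the other IL-6 family member of the group. It had 15.7, 16.98 and 15.9 CPM in unstimulated KO libraries, 12.4, 12.6 and 17.5 CPM with anti-CD3 and 10.8, 12.2 and 10.8 CPM with both antibodies. In WT cells it had 9.27, 13.1 and 13.5 CPM unstimulated, 6.998, 6.33 and 6.33 CPM with anti-CD3, and 7.01 and 8.08 CPM with both antibodies. KO libraries lay above WT libraries in each of the 3 states with no overlap, and unstimulated KO cells had the highest group mean. The share of all genes with such a separation was not counted, here or for the other genes named.

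The genotype difference of Osm was largest with anti-CD3, where it averaged 14.2 ± 2.89 CPM in KO cells and 6.55 ± 0.385 CPM in WT cells (SD, n = 3 each; log2 fold change 1.12 ± 0.16 SE, adjusted p = 0.000273). It was 0.58 ± 0.18 with both antibodies (adjusted p = 0.043) and 0.44 ± 0.16 at rest (adjusted p = 0.0446). These 2 smaller differences lie close to the threshold, and of 27 alternatives 12 lost the call with both antibodies and 16 the call at rest. Leaving out single libraries gave values of 0.46 to 0.68 with both antibodies (adjusted p 0.281 without WT both-antibody replicate 2) and 0.29 to 0.54 at rest (adjusted p 0.213 without WT unstimulated replicate 1). A correction for the GC trend between libraries took the resting value to 0.08 (adjusted p = 0.778).

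Osm fell with stimulation in WT cells, by 0.87 log2 units with anti-CD3 (adjusted p = 0.000668) and by 0.66 with both antibodies (adjusted p = 0.0109). In KO cells the change was -0.19 with anti-CD3 (adjusted p = 0.362, 95% interval -0.49 to 0.11), and with both antibodies Osm fell by 0.53 (adjusted p = 0.0115), which the GC correction took to -0.19 (adjusted p = 0.287). The test of the difference in response to anti-CD3 gave 0.68 ± 0.22 (adjusted p = 0.205 without and 0.0393 with the GC correction). For both antibodies it gave 0.13 ± 0.24 without that correction (adjusted p = 0.705) and 0.75 with it (adjusted p = 0.024).

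Csf2 encodes GM-CSF, which acts on granulocytes and macrophages. It had 0.281, 0.317 and 0.711 CPM in unstimulated KO libraries, 3.78, 3.601 and 6.199 CPM with anti-CD3, and 3.27, 5.55 and 7.27 CPM with both antibodies. In WT cells it had 0.324, 0.228 and 0.0566 CPM unstimulated, 1.65, 1.11 and 1.05 CPM with anti-CD3, and 1.09 and 0.441 CPM with both antibodies. All stimulated KO libraries exceeded all WT libraries. The WT values rest on few reads, 29, 43 and 30 with anti-CD3 and 21 and 9 with both antibodies.

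Csf2 averaged 4.53 ± 1.45 CPM in KO cells and 1.27 ± 0.330 CPM in WT cells given anti-CD3 (SD, n = 3 each; log2 fold change 1.88 ± 0.38, adjusted p = 0.0033). With both antibodies it averaged 5.36 ± 2.00 CPM in KO cells (n = 3) and 0.765 ± 0.459 CPM in WT cells (n = 2), a 7.01-fold difference (log2 2.81 ± 0.49, adjusted p = 0.00357), which did not pass without WT both-antibody replicate 3 (adjusted p = 0.0811). Stimulation raised it in KO cells by 3.55 log2 units with anti-CD3 (adjusted p = 7.15e-06) and 3.78 with both antibodies (adjusted p = 4.06e-06). In WT cells the rise was 2.46 (adjusted p = 0.00175) and 1.76 (adjusted p = 0.0339), and the second was 0.97 (adjusted p = 0.423) without WT both-antibody replicate 2. It also missed the threshold without WT unstimulated replicate 2 (adjusted p = 0.0714) or replicate 3 (adjusted p = 0.0861). At rest the genotypes differed by 0.79 ± 0.57 (adjusted p = 0.322, 95% interval -0.34 to 1.91), on 64 reads over the KO libraries and 17 over the WT libraries.

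Il3, the multi-lineage colony-stimulating factor, had 0 reads in all 6 unstimulated libraries, including the one of 160059285 counts. It had 6.10, 6.19 and 9.43 CPM in KO libraries given anti-CD3 and 3.72, 8.79 and 9.02 CPM in KO libraries given both antibodies. In WT cells it had 0.114, 0.413 and 0.735 CPM with anti-CD3 (2, 16 and 21 reads) and 0.831 and 0.0979 CPM with both antibodies (16 and 2 reads). The lowest stimulated KO library was thus above the highest WT library, and the WT libraries differed among themselves more than the KO ones did on a log scale.

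Il3 averaged 7.24 ± 1.90 CPM in KO cells and 0.421 ± 0.310 CPM in WT cells given anti-CD3 (SD, n = 3 each), which is 4.01 ± 0.57 on the log2 scale (adjusted p = 0.0011). With both antibodies the averages were 7.18 ± 3.00 CPM in KO cells (n = 3) and 0.464 ± 0.518 CPM in WT cells (n = 2), a log2 fold change of 3.96 ± 0.71 (adjusted p = 0.0069). It was 3.11 (adjusted p = 0.0804) without WT both-antibody replicate 3 and 6.12 without replicate 2, where the call held. Against a floor of 3 counts over the unstimulated libraries of a genotype, Il3 was at least 446-fold higher in KO cells given anti-CD3 and at least 442-fold higher with both antibodies. In WT cells it was at least 10.5-fold and at least 11.6-fold higher. The floors, 0.0163 CPM in KO cells and 0.0401 CPM in WT cells, cover counting error only and depend on the reads of the unstimulated libraries. Without KO unstimulated replicate 2, the deepest library, the KO floor was 0.0902 CPM and the KO limits 80.3-fold and 79.6-fold. Leaving out single unstimulated WT libraries gave WT limits of 6.17-fold with anti-CD3 and 6.81-fold with both antibodies without replicate 1, and 6.80-fold and 7.51-fold without replicate 2. Without WT anti-CD3 replicate 3 the limit with anti-CD3 was 6.58-fold. With both antibodies it was 20.7-fold without replicate 3, and replicate 3 alone, with 2 reads, stood at 2.44 times the floor. Adjusted p was 1.13e-05 and 1.19e-05 in KO cells and 0.0143 and 0.0178 in WT cells for anti-CD3 and for both antibodies. In fits of only the groups compared, Il3 did not enter the test in either WT comparison. The WT call with both antibodies was lost without WT both-antibody replicate 2 (adjusted p = 0.23), and with no filter on low counts both WT calls were lost (adjusted p = 0.0711 with anti-CD3 and 0.0782 with both antibodies). No difference of response from rest between genotypes can be estimated for a gene without reads at rest.

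Csf1, which encodes the macrophage growth factor M-CSF, responded to stimulation without a detected difference between the genotypes. It had 0.562, 0.939 and 0.905 CPM in unstimulated KO libraries, 1.79, 1.97 and 2.00 CPM with anti-CD3, and 1.94, 1.78 and 0.820 CPM with both antibodies. In WT cells it had 0.875, 0.152 and 0.736 CPM unstimulated, 1.76, 2.07 and 1.92 CPM with anti-CD3, and 2.596 and 1.91 CPM with both antibodies. The genotypes overlapped in every state.

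Both genotypes averaged 1.92 CPM of Csf1 with anti-CD3 (SD 0.113 in KO cells and 0.152 in WT cells, n = 3 each). The log2 fold change was 0.00 ± 0.37 (adjusted p = 0.999), and its 95% interval of -0.72 to 0.72 leaves room for a difference in either direction. It was -0.56 ± 0.42 with both antibodies (adjusted p = 0.371, interval -1.40 to 0.27) and 0.50 ± 0.43 at rest (adjusted p = 0.407, interval -0.34 to 1.34). Csf1 rose with anti-CD3 by 1.21 log2 units in KO cells (adjusted p = 0.021) and 1.71 in WT cells (adjusted p = 0.00524), and with both antibodies by 1.93 in WT cells (adjusted p = 0.00363). The rise in KO cells given anti-CD3 missed the threshold without KO anti-CD3 replicate 3 (adjusted p = 0.0617) or KO unstimulated replicate 1 (adjusted p = 0.083). In KO cells given both antibodies the change was 0.87 (adjusted p = 0.0868), and 1.16 (adjusted p = 0.0291) without replicate 3 of that group, its lowest library. Without WT unstimulated replicate 2 it was 0.87 with adjusted p = 0.0271. It also passed with limma voom (1.33, adjusted p = 0.00335), with the GC correction (adjusted p = 0.0153) and without the 2 libraries extreme in GC trend (1.33, adjusted p = 0.0436).

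**Figure D2:**
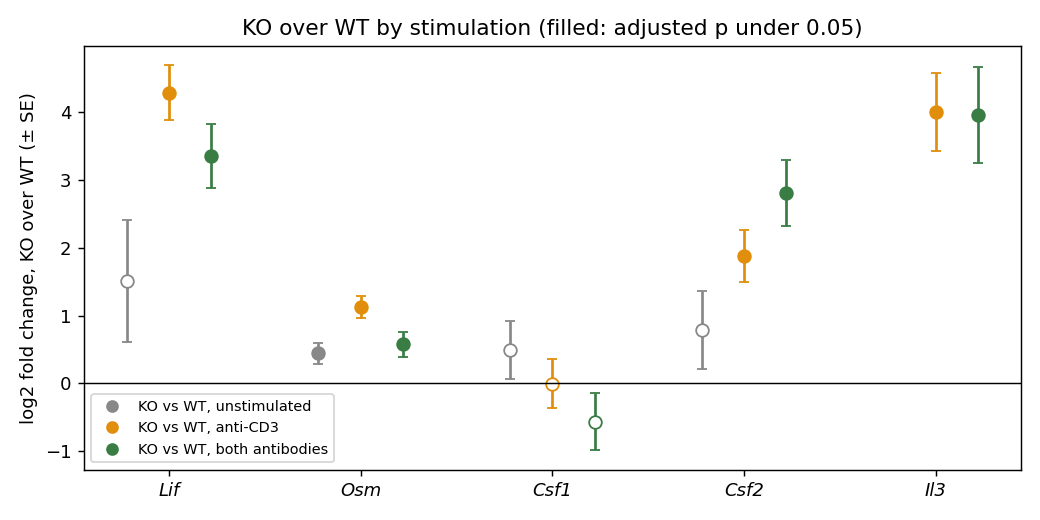
Log2 fold change of KO over WT for each gene (points, with SE bars) in unstimulated cells, with anti-CD3 and with both antibodies; filled points have an adjusted p under 0.05. Il3 at rest is left out since it had 0 reads in both genotypes. Lif, Csf2 and Il3 lie at 1.88 or above in both stimulated states, Osm lies above 0 in all 3 states, and Csf1 is open throughout.

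Counted over the 5 genes, 1 (Osm) was higher in KO cells at rest, where 25.4% of all tested genes were called in either direction. Il3, without reads at rest in either genotype, could not be called there. With anti-CD3, 4 were higher and 0 lower in KO cells, against 15.3% of all genes called, 10.5% higher and 4.8% lower. With both antibodies the same 4 were higher and 0 lower, against 16.1% of all genes called, 9.84% higher and 6.3% lower. Stimulation called 4 of the 5 in KO cells (36.9% of all genes) and all 5 in WT cells (24.4%) with anti-CD3, and 4 of 5 in KO cells (45.4%) and all 5 in WT cells (34.1%) with both antibodies. The 5 in WT cells include Il3, which was not tested there when only the groups compared were fitted. The WT both-antibody group held 2 libraries, and the calls of KO over WT in that state were 0 of 5 when it was left with replicate 2 alone and 2 of 5 with replicate 3 alone, while the 4 calls with anti-CD3 held under all 27 alternatives tried. Without WT both-antibody replicate 2, both antibodies over rest gave 2 calls of 5 in WT cells, and the fall of Osm there did not pass (adjusted p = 0.11). The shares over all genes also moved with single libraries. The 4134 genes called at rest became 348 without KO unstimulated replicate 2 and 611 without WT unstimulated replicate 1. The 2492 called with anti-CD3 became 853 when KO replicate 3 of that state was left out, and 1348 or 1268 when WT replicate 2 or 3 was. The 2621 called with both antibodies became 40 and 11 without WT both-antibody replicates 2 and 3, 1101 and 830 without KO replicates 2 and 3 of that state, and 5647 without KO replicate 1.

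**Figure D3:**
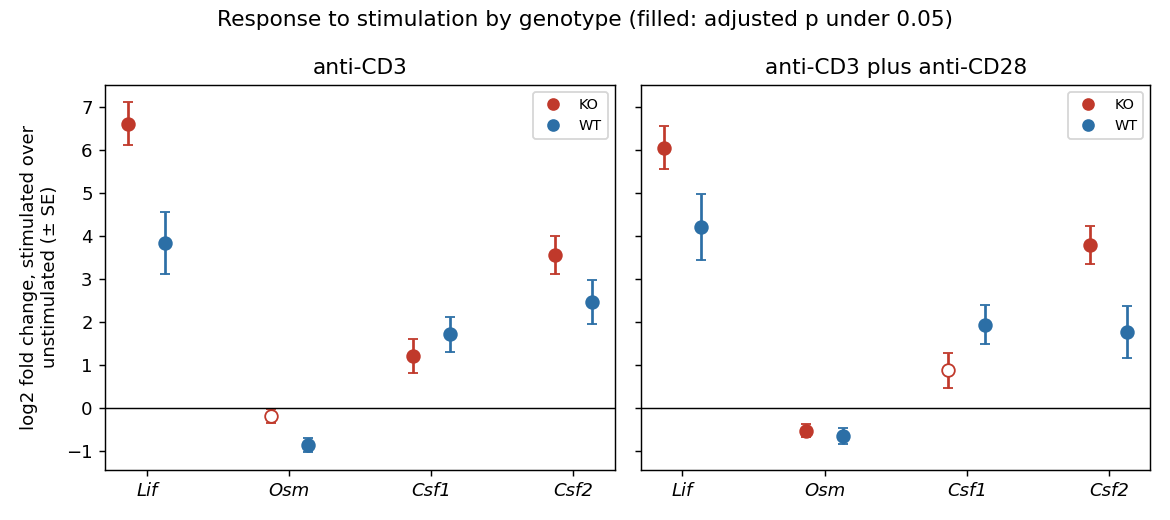
Log2 fold change of stimulated over unstimulated cells for Lif, Osm, Csf1 and Csf2 (points, with SE bars) in KO and WT cells, with anti-CD3 in the left panel and with both antibodies in the right panel; filled points have an adjusted p under 0.05. Lif is at 6.61 and 6.05 in KO cells and at 3.82 and 4.20 in WT cells, and Osm lies below 0 throughout.

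Adding anti-CD28 to anti-CD3 gave no call for any of the 5 genes. In KO cells the log2 changes were -0.56 for Lif, -0.34 for Osm, -0.34 for Csf1, 0.23 for Csf2 and -0.02 for Il3, with adjusted p of 0.547 to 0.988. In WT cells they were 0.38 for Lif, 0.21 for Osm, 0.22 for Csf1, -0.71 for Csf2 and 0.03 for Il3, with adjusted p of 0.408 to 0.988. The background was 0% in both genotypes, since edgeR called 0 genes in all, although 1460 genes in KO cells and 3506 in WT cells had an unadjusted p under 0.05. Among the 5 genes 1 (Osm) in KO cells and 0 in WT cells had such a p. That background of 0 depends on the fit and the libraries. The limma voom fit called 5525 genes in KO cells, 2 of the 5 among them, and 6080 in WT cells, none of the 5. In WT cells DESeq2 called 488 genes, a fit of only the groups compared 4780, and the fit without the 2 libraries extreme in GC trend 2932. Leaving out KO both-antibody replicate 1 gave 628 genes in KO cells and 1187 in WT cells, and leaving out KO both-antibody replicate 3 gave 1434 in WT cells. The intervals are wide, reaching from -1.59 to 1.64 for Il3 in WT cells.

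Without CD28 costimulation, KO cells exceeded WT cells that had received it. KO cells given anti-CD3 had more Lif (3.92 ± 0.48, adjusted p = 0.000244), Il3 (3.98 ± 0.70, adjusted p = 0.00484), Csf2 (2.58 ± 0.48, adjusted p = 0.00268) and Osm (0.92 ± 0.18, adjusted p = 0.00421) than WT cells given both antibodies, on the log2 scale. Csf1 was at -0.22 ± 0.41 (adjusted p = 0.786). This was 4 of 5 called, against 11.5% of all genes (1870, which became 323 and 334 without WT both-antibody replicates 2 and 3 and 679 without KO anti-CD3 replicate 3). Without WT both-antibody replicate 3, Csf2 (adjusted p = 0.0827) and Il3 (adjusted p = 0.0529) missed the threshold, and without replicate 2 Osm did (adjusted p = 0.103). This comparison shares its KO libraries with the anti-CD3 comparison above.

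Of the genotype differences in response, Csf2 alone passed by edgeR without the GC correction, for both antibodies against rest. Its response was 2.02 ± 0.78 log2 units larger in KO cells than in WT cells (adjusted p = 0.0498, 95% interval 0.50 to 3.55), 1 of the 5 genes against 37.5% of all genes, and the call was lost under most alternatives. For anti-CD3 against rest 0 of the 5 passed by edgeR without the GC correction (0.0554% of all genes), with 1.09 ± 0.72 for Csf2 (adjusted p = 0.467). Of the 5, 2 had an unadjusted p under 0.05 and limma voom called 1. With the GC correction edgeR called Osm in both tests against rest, and Csf2 no longer passed for both antibodies. Il3, without reads at rest, could not pass in either test against rest. For the effect of adding anti-CD28, 0 of the 5 passed (0.00616% of all genes), with 1 at an unadjusted p under 0.05 and 1 called by limma voom. Over all genes that background of 1 gene became 4753 without KO both-antibody replicate 1, 1240 without KO unstimulated replicate 2, 2380 with DESeq2 and 7705 with limma voom. For the response to anti-CD3 the 9 genes over all became 329 and 366 without KO both-antibody replicates 1 and 3, 216 with DESeq2 and 839 with limma voom. The largest values for adding anti-CD28 were -0.94 ± 0.60 for Lif (adjusted p = 0.317) and 0.93 ± 0.61 for Csf2 (adjusted p = 0.326).

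In the order of the 6 group means, Lif and Il3 fell into steps. Both were highest in the 2 stimulated KO groups, which did not differ past the threshold (adjusted p = 0.575 for Lif and 0.988 for Il3), then lower in the stimulated WT groups, and lowest at rest. Csf2 had the same first step, but its stimulated WT cells given both antibodies (0.765 CPM) did not differ beyond the spread from unstimulated KO cells (0.436 ± 0.239 CPM; adjusted p = 0.228). Osm ran from 16.2 ± 0.679 CPM in unstimulated KO cells through 14.2, 12.0 and 11.2 CPM in KO cells given anti-CD3, unstimulated WT cells and KO cells given both antibodies to 7.54 and 6.55 CPM in WT cells given both antibodies and anti-CD3. Of these neighbours, KO and WT cells given both antibodies alone differed past the threshold (adjusted p = 0.043). For Csf1, no neighbours in the order did.

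Scaled to exon length, the genes ranked differently in the 2 genotypes. In KO cells given anti-CD3, Il3 was highest at 11.5 CPM per kb, followed by Osm at 6.24, Csf2 at 5.66, Lif at 5.31 and Csf1 at 0.364 CPM per kb. In WT cells given anti-CD3, Osm was highest at 2.88 CPM per kb, followed by Csf2 at 1.59, Il3 at 0.669, Csf1 at 0.363 and Lif at 0.261 CPM per kb. At rest Osm led in both genotypes, at 7.13 CPM per kb in KO cells and 5.27 in WT cells, and the next gene, Csf2, stood at 0.546 and 0.254. These are group means of n = 3, and the ranks were not tested.

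The genes whose log2 CPM ran most like each cytokine over the 17 libraries, by Pearson's r among 9935 genes, are given as a description, since the libraries share their stimulation, genotype and GC trend. For Lif they were Psmd7 (r = 0.976), Clic4 (0.975), Mthfd2 (0.974), Tnf (0.974) and Lta (0.972). For Csf2 they were Clic4 (0.969), Kcnq5 (0.968), Psat1 (0.967), Txn1 (0.965) and Slamf7 (0.961), and for Il3 they were Lta (0.968), Orc1 (0.967), Umps (0.964), Txn1 (0.963) and Lyar (0.962). Clic4, Txn1 and Lta were each named for 2 of these 3 cytokines, and Tnf and Lta themselves encode TNF family cytokines. Osm had other companions, Pdxp (0.949), Atic (0.943), Rps2 (0.937), Cs (0.935) and Stx18 (0.929). Csf1 had lower values, led by Slco3a1 (0.882), Traf1 (0.877), Cdh23 (0.872), Pck2 (0.870) and Pou2f2 (0.865).

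Receptors for these cytokines were mostly scarce in the same cells. The shared chain gp130 was the exception, with 315.9 to 589.2 CPM of Il6st over all libraries, whereas Lifr did not exceed 0.323 CPM and Osmr had 3 reads over all 17 libraries. Csf1r, Csf2ra and Il3ra had group means of 0.289 to 1.96 CPM, and Csf2rb had 0.148 to 0.720 CPM, with reads that its near-identical copy Csf2rb2 may share. Of 12 receptor genes, 8 were tested. At rest 2 of them were higher and 0 lower in KO cells (median 0.64), against 15.3% and 10.1% of all genes. The count of higher ones was 0 to 2 over the alternatives and changed in 18 of 27. With anti-CD3, 0 were higher and 1 lower in KO cells, Il6st (-0.35, adjusted p = 0.00661), with a median log2 fold change of -0.11 over the 8 against 0.04 over all genes. Of all genes 10.5% were called higher and 4.8% lower there. With both antibodies 0 were higher and 2 lower, Il6ra (-0.43, adjusted p = 0.0246) and Il6st (-0.27, adjusted p = 0.0452), with a median of -0.44 against 0.00 over all genes. Of all genes 9.84% were called higher and 6.3% lower in that state. Il6st missed the threshold with anti-CD3 without KO anti-CD3 replicate 3 (adjusted p = 0.0515), and both calls in the other state were lost when either WT both-antibody library or KO both-antibody replicate 2 or 3 was left out. That of Il6st with both antibodies was lost in 14 of 27 alternatives, 11 of them leaving out a single library.

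Among 9 other IL-6 family cytokine genes, 3 were tested. Il6 was higher in KO cells with anti-CD3 (2.39 ± 0.77, adjusted p = 0.0448) and with both antibodies (3.03 ± 0.93, adjusted p = 0.0376), at low levels of 0.853 ± 0.769 CPM in KO cells and 0.176 ± 0.101 CPM in WT cells given anti-CD3 (SD, n = 3 each). The KO libraries given anti-CD3 held 6 to 65 reads of Il6. Without KO anti-CD3 replicate 3 the first value was 1.26 (adjusted p = 0.437), and without KO both-antibody replicate 3 the second was 2.07 (adjusted p = 0.191). Clcf1, whose product signals through the CNTF receptor, was lower in KO cells with both antibodies (-0.60, adjusted p = 0.0303), a call lost when either WT both-antibody library (adjusted p = 0.167 without replicate 2 and 0.148 without replicate 3) or KO both-antibody replicate 2 (0.0761) or 3 (0.0959) was left out. Over the 3 genes 1 was higher and 0 lower with anti-CD3, and 1 higher and 1 lower with both antibodies, with medians of -0.02 and 0.35. The shares over all genes were 10.5% higher and 4.8% lower with anti-CD3, and 9.84% and 6.3% with both antibodies. Of 10 other colony-stimulating and haematopoietic cytokine genes 1 was tested and 0 were called in either state, with values of 0.04 and -0.10.

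Of 15 JAK, STAT and SOCS genes, which carry or restrain signals of such receptors, 10 were higher and 0 lower in KO cells already at rest (median 0.48), against 15.3% of all genes called higher and 10.1% lower in that state. The 10 became 2 without KO unstimulated replicate 2 or with the GC correction, and 4 without WT unstimulated replicate 1. With anti-CD3, 5 of 15 were higher and 1 lower in KO cells (median 0.22), against 10.5% and 4.8% of all genes. The higher ones were led by Cish (2.60, adjusted p = 1.37e-05), a STAT5-induced inhibitor, Stat5a (0.72, adjusted p = 0.00164), the kinase Pim1 (0.71, adjusted p = 0.00204) and Socs2 (2.24, adjusted p = 0.00729), and the lower one was Jak1 (-0.34, adjusted p = 0.00596). With both antibodies 2 were higher, Cish (1.68, adjusted p = 0.00314) and Socs2 (3.27, adjusted p = 0.00875), and 2 lower, Socs1 (-0.72, adjusted p = 0.00812) and Stat5b (-0.69, adjusted p = 0.0145), with a median of -0.18, against 9.84% and 6.3% of all genes. Without KO anti-CD3 replicate 3 the 5 became 3, and leaving out either WT both-antibody library left 0 called with both antibodies.

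Of 22 transcription factors known to act on Csf2, Il3 or Lif in T cells, 9 were higher and 2 lower in KO cells at rest (median 0.37), against 15.3% and 10.1% of all genes. The 9 became 0 without KO unstimulated replicate 2, 1 without WT unstimulated replicate 1, 4 without KO unstimulated replicate 1 or WT unstimulated replicate 2, 5 without WT unstimulated replicate 3, and 1 with the GC correction. With anti-CD3 11 were higher and 2 lower in KO cells, against 10.5% and 4.8% of all genes, with a median of 0.47 against 0.04 over all genes. The higher ones were led by the NF-κB subunit Nfkb1 (0.56, adjusted p = 0.000818), Bhlhe40 (1.33, adjusted p = 0.00295), a factor needed for GM-CSF production by T cells, and the AP-1 members Fosb (1.29, adjusted p = 0.00333) and Fos (0.75, adjusted p = 0.00614). Nfatc3 (-0.34, adjusted p = 0.0103) and Ets1 (-0.22, adjusted p = 0.0416) were lower. The 11 became 3 without KO anti-CD3 replicate 3. Among the WT anti-CD3 libraries, leaving out replicate 2 gave 6 and leaving out replicate 3 gave 5. With both antibodies 2 were higher, Irf4 (0.78, adjusted p = 0.00517) and Rel (0.59, adjusted p = 0.0173), and 2 lower, Nfatc1 (-0.48, adjusted p = 0.0264) and Runx3 (-0.54, adjusted p = 0.0447), with a median of -0.22 against 0.00 over all genes, of which 9.84% were called higher and 6.3% lower. Leaving out either WT both-antibody library left 0 called in that state.

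Of 12 RNA-binding proteins that act on AU-rich or stem-loop elements, 2 were higher and 4 lower in KO cells at rest (median -0.25). Over all genes 15.3% were called higher and 10.1% lower in that state. The 2 and 4 became 0 and 1 without KO unstimulated replicate 2 or with the GC correction, and 1 and 2 without WT unstimulated replicate 1. Without KO unstimulated replicate 3, 7 were lower. In each stimulated state 1 was higher and 1 lower, a share near that of all genes (10.5% and 4.8% with anti-CD3, 9.84% and 6.3% with both antibodies). With anti-CD3 these were Khsrp (0.63, adjusted p = 0.00207) and Zfp36l2 (-0.33, adjusted p = 0.0102), both of which promote decay, and the median was -0.04. With both antibodies they were Hnrnpd (0.52, adjusted p = 0.0279), which encodes AUF1, and Zfp36 (-0.66, adjusted p = 0.0126), which encodes tristetraprolin, and the median was 0.03. Zfp36l2 missed the threshold without KO anti-CD3 replicate 3 (adjusted p = 0.0719) or WT anti-CD3 replicate 3 (adjusted p = 0.0571). Hnrnpd and Zfp36 missed it when either WT both-antibody library was left out, Hnrnpd also without KO both-antibody replicate 3 (adjusted p = 0.119) and Zfp36 without KO both-antibody replicate 2 (adjusted p = 0.0502). Without KO both-antibody replicate 1, 4 were higher and 4 lower.

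Neighbouring genes were described to see whether the differences reached beyond the cytokines. The 3 nearest protein-coding genes on each side of each cytokine gave 18 genes, of which 9 were tested. With anti-CD3, 3 were higher and 0 lower in KO cells, against 10.5% and 4.8% of all genes. The largest value was that of Acsl6, an acyl-CoA synthetase gene 36520 bases from Il3. It had 1.70, 2.19 and 2.65 CPM in KO libraries and 0.740, 0.0517 and 0.770 CPM in WT libraries given anti-CD3, with no overlap (log2 fold change 2.17 ± 0.59, adjusted p = 0.0188). The others were Tbc1d10a (0.63 ± 0.20, adjusted p = 0.0423) and the splicing factor gene Sf3a1 (0.48 ± 0.10, adjusted p = 0.00337), both on the far side of Osm from Lif. Acsl6 missed the threshold without KO anti-CD3 replicate 3 (adjusted p = 0.107) or WT anti-CD3 replicate 2 (1.53, adjusted p = 0.0524), and Tbc1d10a, which missed it in 20 of 27 alternatives, was at 0.10 with the GC correction (adjusted p = 0.504). Castor1, between Osm and Tbc1d10a, was at 0.11 ± 0.28 (adjusted p = 0.829). At rest both Castor1 (1.12 ± 0.27, adjusted p = 0.0108) and Tbc1d10a (1.01 ± 0.20, adjusted p = 0.00696) were higher in KO cells, and both calls were lost with the GC correction (0.54, adjusted p = 0.134 for Castor1 and 0.14, adjusted p = 0.393 for Tbc1d10a) and without KO unstimulated replicate 2 (adjusted p = 0.0669 and 0.0501). That of Castor1 was also lost without WT unstimulated replicate 1 (adjusted p = 0.0658). With both antibodies Acsl6 (5.66-fold, adjusted p = 0.0338) and Fnip1 (0.67 ± 0.15, adjusted p = 0.00918) were higher, and neither call held when either WT both-antibody library was left out. At rest Acsl6 had 12 reads over the KO libraries and 6 over the WT libraries, with a difference of -0.21 ± 1.05 (adjusted p = 0.904).

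**Figure D4:**
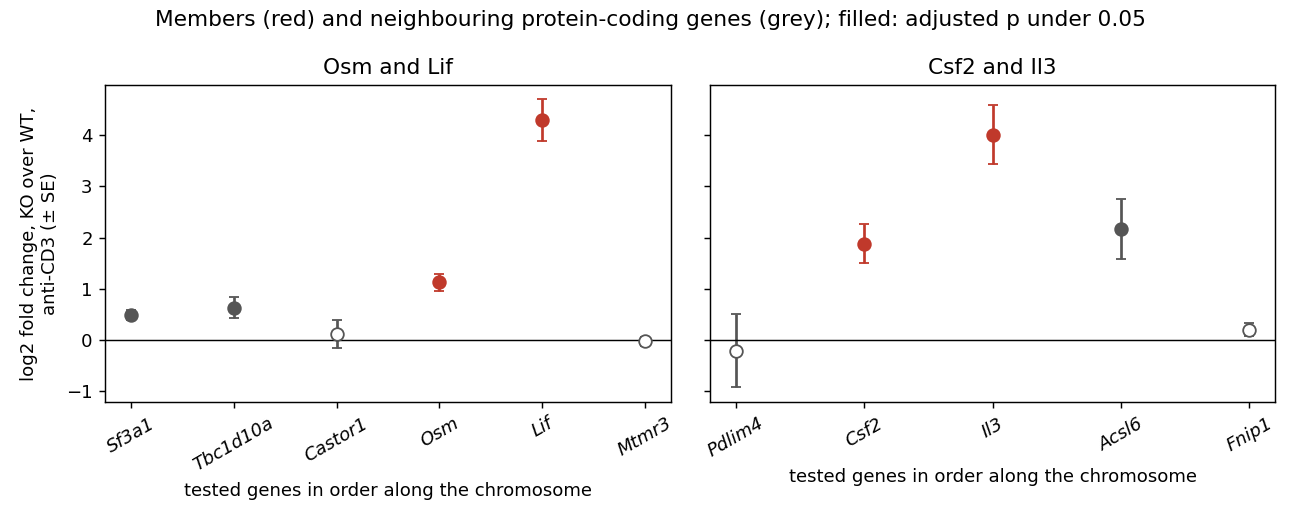
Log2 fold change of KO over WT with anti-CD3 (points, with SE bars) for the cytokine genes (red) and their tested neighbours (grey), in order along chromosome 11 at the Osm and Lif locus and at the Csf2 and Il3 locus; filled points have an adjusted p under 0.05. Lif and Il3 are the highest points of their loci at 4.29 and 4.01, and Acsl6 at 2.17 is the highest neighbour.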

How the data were processed

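The deposited values are whole-number gene counts by Ensembl identifier, with a table for each library. Per the labels' protocols, libraries came from total RNA depleted of ribosomal RNA, with a stranded kit. The submitters' processing notes name STAR 2.5.2, RSEM 1.3.0 and the build GRCm38. The sources used here do not give the annotation release, strand setting or any rounding of estimated counts. Symbols and positions came from a GENCODE annotation of GRCm38 and promoters from RefSeq (GRCm38.p6).

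Counts were fitted as deposited in edgeR 4.0.16 (R 4.3.3) with TMM scaling, filterByExpr by group (minimum count 10) and robust quasi-likelihood models over all 17 libraries, 6 group coefficients and 13 contrasts, with Benjamini-Hochberg adjustment within each contrast and a threshold of 0.05 (common biological coefficient of variation 0.153). SEs derive from the fold change and its F statistic. CPM used TMM-scaled totals, from 16635826 to 160059285 counts per library before scaling. Replicates of a group differed beyond sampling noise, with a chi-square of 4.03 to 629 per gene. Alternatives were DESeq2 1.42.0, voom with quality weights in limma 3.58.1, scaling by relative log expression, other filters, fits of only the groups compared, a replicate block, a loess correction on GC content, and leaving out libraries. The fit was tested on simulated counts. The members and lists were chosen with earlier results of these data known. Named were the 5 cytokines, Cblb, up to 4 list genes per direction by adjusted p, the called neighbours (1 result is not reported here) and the 5 genes most like each cytokine; receptors and Castor1 were named after their values were seen. A table joining the libraries was not used.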

Additional observations from a re-analysis of the deposited data

Results flagged for a closer look

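The response of Csf2 to both antibodies, measured against unstimulated cells, differed between the genotypes by an interaction test. It was 2.02 ± 0.78 log2 units larger in KO cells than in WT cells (SE, adjusted p = 0.0498, edgeR). Csf2 averaged 5.36 CPM stimulated and 0.436 CPM at rest in KO cells, and 0.765 CPM stimulated and 0.203 CPM at rest in WT cells. The adjusted p lies just under the threshold. It was 0.0164 to 0.246 over the alternatives, and the value 1.42 to 2.78. The call was lost in 19 of 27 alternatives, among them 12 of the 17 that left out a single library.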

How the results depend on the processing

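Over 58 results of the 5 genes and 27 alternatives, 1446 of 1559 values kept direction and side of the threshold, 67 lost and 14 gained a call, and 32 reversed, all of them of results without a call. The 58 leave out every result of Il3 that involves unstimulated cells. Among those, both WT calls over rest were lost with no filter on low counts (adjusted p = 0.0711 with anti-CD3 and 0.0782 with both antibodies, edgeR). The 4 calls of KO over WT with anti-CD3 held in all 27. Causes were not tested. Low counts and 2 WT both-antibody libraries limit precision.

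Genes called among the 5 changed as follows. Il3 could not be called in KO over WT at rest or in the interactions against rest. Anti-CD3 over rest was 3 to 4 in KO (4) and 4 to 5 in WT (5) over the alternatives. Both antibodies over rest in KO (4) was 4 to 5. KO over WT at rest (1) became 0 with no filter, only the groups compared, the GC correction, the replicate block with GC correction, and without the 2 libraries extreme in GC trend, and was 0 to 1 leaving out single libraries. With both antibodies (4) it was 0 with only the groups compared and 0 to 4 leaving out libraries. Both antibodies over rest in WT (5) was 3 with only the groups compared and 2 to 5. KO anti-CD3 over WT both antibodies (4) was 2 to 4. Voom gave 2 for adding anti-CD28 in KO (0). The interaction for anti-CD3 (0) was 1 with voom, the GC correction and the block with GC correction. That for both antibodies (1) was 0 with voom, no filter, only the groups compared, the replicate block, and without the extreme libraries. It was 0 to 1 leaving out libraries. With the GC correction the 1 was Osm, as Csf2 lost its call there. That for anti-CD28 (0) was 1 with voom.

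Reversed values were, for Csf1 in KO over WT with anti-CD3, 0.0075 with no filter and 0.000718 with the replicate block (-0.0536 to 0.0577 leaving out libraries). For adding anti-CD28 in KO cells they were -0.0373 for Csf2 without the extreme libraries (-0.0512 to 0.54) and, for Il3, 0.0022 with relative log expression, 0.0103 with DESeq2 and 0.40 with voom (-0.22 to 0.29). In WT cells the block with GC correction gave -0.0459 for Lif, -0.12 for Osm, -0.0218 for Csf1 and -0.0598 for Il3. The GC correction gave -0.0517 for Osm and -0.0436 for Csf1 (-0.0218 to 0.43). For Il3 voom gave -0.52 and the block -0.12 (-2.16 to 0.88). In the anti-CD28 interaction Osm was 0.0176 with block and GC correction, and Il3 was 0.93 with voom, 0.0176 with only the groups compared and 0.014 with the block (-0.90 to 2.15).

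Of 40 same-numbered pairs of libraries 11 correlated above 0.1 in their deviations from the group means (r -0.41 to 0.55). With 2 or 3 libraries per group and no differently numbered pairs for comparison, these values cannot tell whether replicate numbers pair the samples. The block with GC correction took Csf1 in KO cells given both antibodies over rest to 1.19 (adjusted p = 0.0225). The block took Csf2 in WT cells given both antibodies over rest to an adjusted p of 0.0532.

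All genes called moved too: at rest 4134 became 1040 with the GC correction and 348 to 5465 leaving out libraries; with anti-CD3 2492 became 5765 with voom and 5262 with only the groups compared, and 853 to 3528 leaving out libraries; with both antibodies 2621 became 9409 with voom and 0 with only the groups compared, and 11 to 5647 leaving out libraries. KO anti-CD3 over WT both antibodies (1870) was 323 to 2811 leaving out libraries.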
